A study of Mus musculus with 12 samples.

Results

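The 10 genes described here, Hspa5, Hsp90b1, Calr, Pdia4, Hyou1, Sdf2l1, Creld2, Dnajb9, Herpud1 and Xbp1, are genes of the unfolded protein response of the endoplasmic reticulum (ER). They were chosen with earlier results of these data known and taken by name, as rows whose gene symbol equals 1 of these. All 10 were found among 39423 listed genes, of which 26095 had a count in at least 1 library. Most encode ER chaperones or their helpers. Herpud1 encodes a membrane protein of ER-associated degradation and Xbp1 a transcription factor, so the name chaperone holds for only part of the set.

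RNA-seq was performed on mouse 3T3-L1 preadipocytes, an established fibroblast line that turns into fat-storing cells under a hormone cocktail. All cells received the cocktail (DMI in the study, MDI in the labels: dexamethasone, 3-isobutyl-1-methylxanthine and insulin), for 24 h or 72 h, and no uninduced cells are among these samples. Cells carried either a non-targeting control siRNA (siCtrl, labelled NC) or siRNA against PRMT1 (siPRMT1, labelled KD), an enzyme that methylates arginines, with 3 libraries in each of the 4 groups. The siRNA was transiently transfected, and which PRMT1 siRNA was used is not given in the sources used here.

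When unfolded proteins pile up in the ER, the sensors IRE1, ATF6 and PERK are activated. IRE1 splices Xbp1 mRNA so that it encodes an active factor, ATF6 is cut to release a factor, and both factors raise ER chaperone and degradation genes. PERK slows translation and raises ATF4, whose targets include Ddit3 and Trib3. Adipocytes secrete large amounts of protein, and XBP1 is known to be needed for fat cell formation in culture.

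The promoters of several of these genes carry the ER stress response element, spelled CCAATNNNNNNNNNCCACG, to which NF-Y (at CCAAT) and ATF6 or XBP1 (at CCACG) bind. RefSeq promoter windows (GRCm38.p6, 250 bases before to 50 after a gene's start) were found for 9 of the 10 genes, Hyou1 being the other, and were searched on both strands. The element lay in the windows of Hspa5, Hsp90b1, Calr and Creld2, 4 of 9, against 39 of all 32851 windows (0.119%). The 10 genes were chosen as known genes of the response that the element serves, so this share is no test of enrichment. Hsp90b1 had 2 copies. The 250 bases before the start of Hspa5 are shown whole, and for the other 3 genes the element with 10 bases on each side, because these are the genes that share it. All are written 5′ to 3′ on the gene's strand, with the element in capitals on whichever strand it reads.
Hspa5, chr2:34771840-34772089, plus strand: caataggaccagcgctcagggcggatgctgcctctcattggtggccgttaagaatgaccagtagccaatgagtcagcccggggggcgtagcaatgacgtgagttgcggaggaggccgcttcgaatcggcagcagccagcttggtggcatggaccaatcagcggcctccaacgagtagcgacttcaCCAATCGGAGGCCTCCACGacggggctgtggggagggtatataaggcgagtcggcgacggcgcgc
Hsp90b1, far copy, chr10:86705628-86705666, minus strand: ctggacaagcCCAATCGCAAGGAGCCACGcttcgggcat
Hsp90b1, near copy, chr10:86705523-86705561, minus strand: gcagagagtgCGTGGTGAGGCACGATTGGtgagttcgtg
Calr, chr8:84847065-84847103, minus strand: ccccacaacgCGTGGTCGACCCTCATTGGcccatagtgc
Creld2, chr15:88819510-88819548, plus strand: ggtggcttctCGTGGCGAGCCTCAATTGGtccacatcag

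Herpud1 differed from these. Its window held the shorter ER stress response element II (ATTGGNCCACG), found in 12 of all windows (0.0365%) and in no other window of these genes, and the composite element TGATGNAA, to which C/EBP and ATF4 proteins bind, found in 3.97% of all windows and again in no other of these genes. They are shown because Herpud1 is the gene whose response turned round between the 2 times. No link between these elements and that change was tested. The window is counted from a RefSeq start that lies inside the gene as the files list it, so both elements lie within the listed gene. The composite element began 112 bases upstream of that start and read on the opposite strand, and element II began 52 bases upstream.
Herpud1, composite element, chr8:94386307-94386334, plus strand: ccacggcgggTTGCATCAgcccgcaccc
Herpud1, element II, chr8:94386367-94386397, plus strand: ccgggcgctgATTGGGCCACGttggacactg

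No window of the 9 held the unfolded protein response element TGACGTGG, which is in 0.676% of windows. The end CCACG alone, part of both stress elements, was in 8 of the 9 windows and in 32.8% of all windows. The Xbp1 window was the 1 without it. A match of letters is a description and not a test of binding, and the shares given here are no test of enrichment.

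In these cells Calr, calreticulin, a calcium-binding chaperone for glycoproteins, had the highest level of the 10, with a mean of 540 FPKM (the deposited unit, fragments scaled for gene length and library depth) over the 12 libraries. Hspa5, the HSP70 chaperone BiP, followed with 310 FPKM and Hsp90b1, the HSP90 of the ER, with 259 FPKM. Pdia4, a disulfide isomerase, had 135 FPKM and Xbp1 103 FPKM. Creld2, a disulfide isomerase-like protein, had 56.3 FPKM and Hyou1, a large HSP70 relative that recharges BiP with nucleotide, 44.5 FPKM. Herpud1 had 23.8 FPKM, Dnajb9, a J-domain partner of BiP, 19.9 FPKM, and Sdf2l1, a further BiP partner, 15.3 FPKM.

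The order was not the same in every group. Xbp1 lay below Pdia4 at 24 h and in siPRMT1 at 72 h, but all 3 siCtrl libraries at 72 h had more Xbp1 than any had Pdia4. Xbp1 was also below Creld2 in the siPRMT1 libraries at 24 h, and overlapped with it in siCtrl at 24 h, where Creld2 and Hyou1 overlapped too. The library ranges of Hspa5 and Hsp90b1 overlapped in siCtrl at 24 h, those of Herpud1 and Dnajb9 in every group except siPRMT1 at 24 h, and those of Dnajb9 and Sdf2l1 in both groups at 24 h. The 10 genes together took 0.332% to 0.393% of all counted reads in every library, and the lowest count of any of them was 278 (Sdf2l1 in siCtrl at 24 h).

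**Figure D1:**
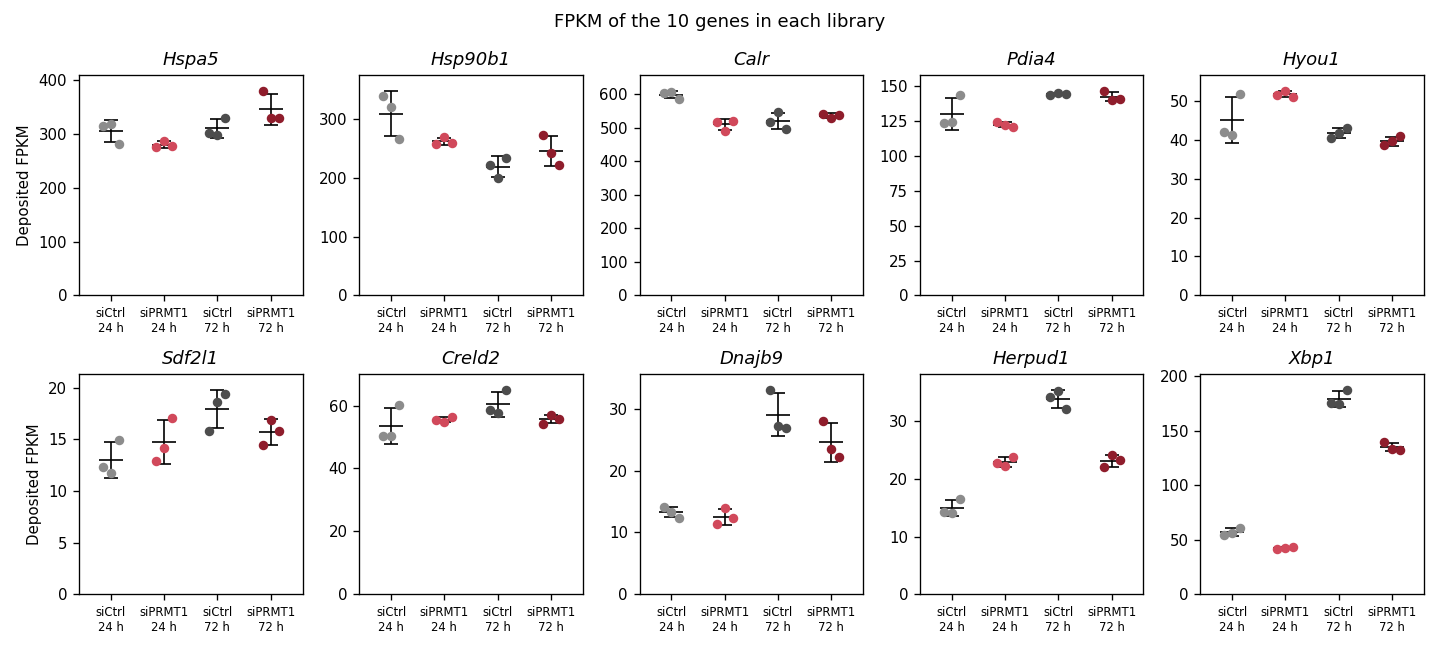
Deposited FPKM (vertical axis, from 0, own scale for each gene) of the 10 genes in the 4 groups (horizontal axis); points are the 3 libraries of a group and bars the mean ± SD. Xbp1 and Dnajb9 are higher at 72 h in both arms, and Herpud1 crosses over: siPRMT1 is above siCtrl at 24 h and below it at 72 h.

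Library totals ran from 15116462 to 42357137 counts. Prmt1, the targeted gene, was at 82.9, 83.4 and 91.3 FPKM in siCtrl and 43.8, 38.6 and 41.4 FPKM in siPRMT1 at 24 h, and at 111, 120 and 140 against 62.0, 71.7 and 68.5 FPKM at 72 h, so Prmt1 was lower in every siPRMT1 library than in every control of its time. Replicate 3 of siCtrl at 24 h stood apart: its root mean square log2 difference from the other 2 was 0.503 and 0.457, against 0.276 to 0.345 for every other pair of replicates. In that library genes rich in G and C were counted more, by 0.38 log2 per 10 points of GC content relative to its group. Among the 10 genes it was higher than its group mean by 0.34 (log2) for Hyou1 and Sdf2l1, 0.28 for Creld2, 0.24 for Pdia4 and Herpud1 and 0.17 for Xbp1. It was lower by 0.29 for Hsp90b1 (-0.29), 0.15 for Hspa5 (-0.15), 0.13 for Dnajb9 (-0.13) and 0.02 for Calr (-0.02). The 24 h changes of all 10 genes are therefore also given without it. Markers of fat cells were lower in siPRMT1: the summed FPKM of 8 genes was 157 to 164 against 118 to 133 at 24 h and 2803 to 3016 against 2179 to 2354 at 72 h, while 8 preadipocyte markers summed to 2151 to 2253 against 2086 to 2145 and to 625 to 676 against 777 to 888. Summed macrophage markers stayed at 2.38 to 3.02 FPKM and endothelial ones at 0.12 to 0.88, with Ptprc at 0 in every library and Kdr at most 0.02. Epithelial markers were at most 0.12 FPKM at 24 h, and at 72 h 11.0 to 11.4 against 6.36 to 6.64, carried by Krt8 and Krt18. In bulk RNA, fewer cells of a type and less RNA per cell cannot be told apart, and the part of differentiation in the results below was not tested.

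The first comparison asked what PRMT1 knockdown did to these genes after 24 h of DMI. Herpud1 was 48.6% higher in siPRMT1, Xbp1 fell by 28.0% and Calr fell by 17.7%, and the other 7 genes did not pass the test. The pass of Calr was lost in 5 of the 6 fits that left out 1 library. A gene was called when its Benjamini-Hochberg adjusted p (edgeR quasi-likelihood test over all genes) was under 0.05 and its absolute log2 fold change over 0.5. On that rule 1 of 10 genes was called higher and 0 lower, against 1.95% and 1.61% of all 13689 genes tested. Without the fold threshold 3 of 10 passed the adjusted p, against 7.60% of all genes. The median log2 change of the 10 was -0.14 and that of all genes 0.01.

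Herpud1 (chr8:94386138-94395366, plus strand, in the mm10 coordinates of the files), whose protein helps deliver misfolded ER proteins for degradation, was at 14.3, 14.04 and 16.5 FPKM in siCtrl and 22.7, 22.3 and 23.9 FPKM in siPRMT1 at 24 h. Every siPRMT1 library was above every siCtrl library. The log2 fold change was 0.57 (SE 0.0826, 3 against 3 libraries, edgeR adjusted p = 0.00806), a rise of 48.6%. The size was 0.53 to 0.64 when any 1 library was left out, but the adjusted p rose above 0.05 in 3 of these 6 fits, up to 0.0640: those without siCtrl replicate 2 (0.53), siPRMT1 replicate 1 (0.55) and siPRMT1 replicate 3 (0.54). Without siCtrl replicate 3, the library that stood apart, it was 0.64 with an adjusted p of 4.0e-05.

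Xbp1 (chr11:5520641-5525993, plus strand), the transcription factor that drives much of the response, was at 54.3, 55.7 and 60.8 FPKM in siCtrl and 41.8, 42.4 and 43.1 FPKM in siPRMT1. The groups did not overlap and the siPRMT1 libraries lay close together. Its log2 fold change of -0.47 (SE 0.0664, edgeR adjusted p = 0.00712) was a change of -28.0% that passed the adjusted p but not the fold threshold. It went past -0.5 in the fit of all 12 libraries (-0.51) and without siCtrl replicate 1 (-0.50). Without siPRMT1 replicate 3 it was -0.49 with an adjusted p of 0.0511, and without siCtrl replicate 3 it was -0.43 (adjusted p = 1.2e-04). Gene counts do not separate spliced from unspliced Xbp1, so the active form was not measured.

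Among the chaperones, Calr (chr8:84842088-84846931, minus strand) was at 603, 605 and 585 FPKM in siCtrl and 518, 491 and 520 FPKM in siPRMT1, again with no overlap. Its log2 fold change of -0.28 (SE 0.0501, edgeR adjusted p = 0.0173) passed the adjusted p only. With 1 library left out it was -0.32 to -0.27, and the adjusted p stayed under 0.05 only without siCtrl replicate 3 (-0.30, adjusted p = 3.7e-04), reaching 0.0859 in the other 5 fits and 0.124 with limma and no FPKM minimum. Hspa5 was at 314, 319 and 281 FPKM in siCtrl and 276, 287 and 278 FPKM in siPRMT1, where replicate 3 of siCtrl lay inside the siPRMT1 range. Hspa5 (chr2:34772090-34776529) gave -0.17 (95% interval -0.32 to -0.02, edgeR adjusted p = 0.150). It overlaps Rabepk in RefSeq, whose highest count was 1884, and whether the counting used strand is not given in the sources used here.

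Hsp90b1 (chr10:86690841-86705444, minus strand) was at 340, 322 and 267 FPKM in siCtrl and 257, 270 and 260 FPKM in siPRMT1, with the same library inside the siPRMT1 range. It gave -0.29 (95% interval -0.50 to -0.08, edgeR adjusted p = 0.0949). Without replicate 3 of siCtrl, Hspa5 was -0.23 (adjusted p = 0.00210), Hsp90b1 -0.39 (adjusted p = 1.1e-04) and Hyou1 0.25 (adjusted p = 0.00278). In that fit 6 of 10 genes passed the adjusted p of edgeR, 2 higher and 4 lower, against 4133 of all 13949 genes tested. The calls with the fold threshold stayed at 1 higher and 0 lower.

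The remaining genes gave intervals that include 0. Pdia4 had -0.14 (95% interval -0.30 to 0.02), Dnajb9 -0.14 (-0.38 to 0.10), Sdf2l1 0.13 (-0.17 to 0.44), Hyou1 0.15 (-0.05 to 0.35) and Creld2 0.00 (-0.19 to 0.19). Without replicate 3 of siCtrl, Pdia4 was -0.07 (adjusted p = 0.276), Sdf2l1 0.23 (adjusted p = 0.134) and Creld2 0.08 (adjusted p = 0.270). With any 1 library left out Sdf2l1 ran from 0.0071 (without siPRMT1 replicate 3) to 0.23, Hyou1 from 0.094 (without siCtrl replicate 2) to 0.25, and Dnajb9 from -0.25 (without siPRMT1 replicate 2) to -0.090 (without siCtrl replicate 1), being -0.20 without siCtrl replicate 3. Dnajb9 ran from 12.4 to 14.1 FPKM in siCtrl and from 11.3 to 13.9 in siPRMT1, and Creld2 from 50.2 to 60.1 and from 54.9 to 56.2, both with overlap. In deposited FPKM 3 of 10 genes had groups that did not overlap (Xbp1, Herpud1 and Calr), against 31.7% of all genes. In CPM with TMM normalization (edgeR's trimmed mean scaling) 6 of 10 did, against 31.5%, because Hspa5, Hsp90b1 and Pdia4 joined them.

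**Figure D2:**
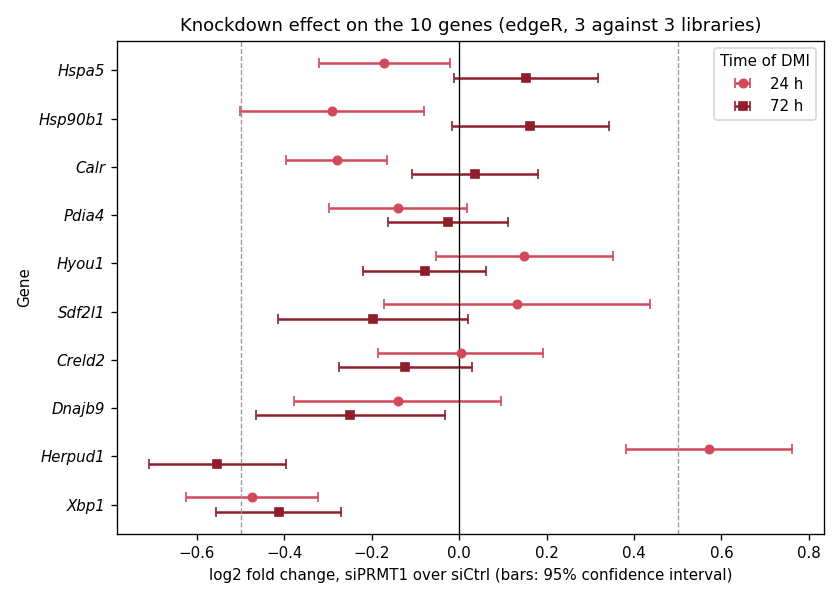
log2 fold change of siPRMT1 over siCtrl (horizontal axis) for the 10 genes (vertical axis) at 24 h (circles) and 72 h (squares), with 95% confidence intervals from edgeR and dashed lines at the fold threshold of 0.5. Herpud1 lies at 0.57 and -0.55, Xbp1 at -0.47 and -0.41, and most other intervals include 0.

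After 72 h of DMI the knockdown left Xbp1 lower again, and Herpud1 was now lower instead of higher. On the same rule 0 of 10 genes were called higher and 1 lower, against 2.84% and 3.80% of 14039 genes tested. Both Herpud1 and Xbp1, 2 of 10, passed the adjusted p alone, against 16.5% of all genes. The median log2 change of the 10 was -0.10, and that of all genes 0.01.

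Herpud1 was at 34.3, 35.3 and 32.2 FPKM in siCtrl and 22.1, 24.2 and 23.3 FPKM in siPRMT1 at 72 h. Every siPRMT1 library was below every siCtrl library. The log2 fold change was -0.55 (SE 0.0733, edgeR adjusted p = 1.2e-04), a change of -31.8%, and it was called in all 6 fits that left out 1 library. With offsets for GC content and length it was -0.48, below the fold threshold.

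Xbp1 was at 175, 174 and 187 FPKM in siCtrl and 139, 133 and 132 FPKM in siPRMT1. The groups stood well apart. The log2 fold change of -0.41 (SE 0.0673, edgeR adjusted p = 6.4e-04) was a change of -24.9%, below the fold threshold.

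No chaperone passed the adjusted p at 72 h. Hspa5 was at 302, 299 and 330 FPKM in siCtrl and 379, 329 and 330 FPKM in siPRMT1, with siPRMT1 replicate 1 the highest, and gave 0.15 (95% interval -0.01 to 0.32). Hsp90b1 gave 0.16 (-0.02 to 0.34) and Calr 0.04 (-0.11 to 0.18). Without siPRMT1 replicate 1, Hspa5 was 0.073 (adjusted p = 0.546) and Hsp90b1 0.072 (adjusted p = 0.591). Dnajb9 was at 33.1, 27.3 and 26.9 FPKM in siCtrl and 28.1, 23.5 and 22.2 FPKM in siPRMT1, 1 library of siPRMT1 lying inside the siCtrl range, and gave -0.25 (-0.47 to -0.03, edgeR adjusted p = 0.108).

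Of the 6 fits that left out 1 library, Dnajb9 passed the adjusted p only without siPRMT1 replicate 1 (-0.36, adjusted p = 0.0140), and it was -0.16 (adjusted p = 0.304) without siCtrl replicate 1. It also passed with the replicate number as a block (-0.25, adjusted p = 0.0133) and with GC and length offsets (-0.35, adjusted p = 0.00172). Sdf2l1 had -0.20 (95% interval -0.41 to 0.02), Creld2 -0.12 (-0.28 to 0.03), Hyou1 -0.08 (-0.22 to 0.06) and Pdia4 -0.03 (-0.16 to 0.11). The groups did not overlap for 3 of 10 genes, Xbp1, Herpud1 and Creld2, both in deposited FPKM (34.2% of all genes) and in normalized CPM (34.9%).

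The change of the knockdown effect from 24 h to 72 h was tested as an interaction over the 12 libraries. It was called for Herpud1 alone among the 10 (0 higher, 1 lower), against 4.77% called higher and 3.47% called lower of 14612 genes. For Herpud1 it was -1.10 log2 (SE 0.113, edgeR adjusted p = 3.5e-05), and it was called in all 12 fits that left out 1 library, from -1.21 to -1.06. In each time point 3 of 3 siPRMT1 libraries lay on the same side of the controls, and on opposite sides at the 2 times.

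Counting the adjusted p alone, 4 of 10 genes passed the interaction, against 12.3% of all genes. Hspa5 had 0.34 (SE 0.0996, adjusted p = 0.0366), Hsp90b1 0.47 (SE 0.128, adjusted p = 0.0275) and Calr 0.34 (SE 0.0760, adjusted p = 0.0103), all by edgeR, so their knockdown effects were more negative at 24 h than at 72 h. Over the 22 fits made, including the main 1, Calr passed the adjusted p in 20, Hsp90b1 in 13 and Hspa5 in 11. Without siPRMT1 replicate 1 at 72 h, Hspa5 had 0.27 (adjusted p = 0.0830) and Hsp90b1 0.38 (adjusted p = 0.0675). Without siCtrl replicate 3 at 24 h, Hyou1 (-0.35, adjusted p = 0.00445) and Sdf2l1 (-0.45, adjusted p = 0.0496) passed as well. For Xbp1 the difference was 0.08 (95% interval -0.11 to 0.28, adjusted p = 0.607), so its effects at the 2 times differed by at most 0.28 log2 within that interval.

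Between 24 h and 72 h of DMI in siCtrl cells, Xbp1, Herpud1 and Dnajb9 rose and Hsp90b1 fell. They make 3 of 10 genes called higher and 1 lower, against 22.7% and 20.4% of 13829 genes. Xbp1 rose by 1.58 log2 (SE 0.0806), Herpud1 by 1.113 (SE 0.0997) and Dnajb9 by 1.06 (SE 0.109), with edgeR adjusted p of 1.8e-07, 7.9e-06 and 2.0e-05. For all of them the 72 h libraries lay above every 24 h library.

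Hsp90b1 went from 340, 322 and 267 FPKM to 223, 200 and 235 FPKM in siCtrl, with no overlap. Its log2 change was -0.57 (SE 0.0973, edgeR adjusted p = 6.4e-04). The change was -0.67 without the library that stood apart, and fell short of the fold threshold with limma on log2(FPKM + 1) (-0.49) and with the GC and length offsets (-0.50). Calr (-0.27, adjusted p = 0.00518) and Sdf2l1 (0.40, adjusted p = 0.0283) passed the adjusted p of edgeR but not the fold threshold. Over the 17 fits made, including the main 1, Calr passed the adjusted p in 16 and Sdf2l1 in 12. With 1 library left out the edgeR adjusted p of Sdf2l1 reached 0.136. Hspa5 had -0.04 (95% interval -0.21 to 0.12).

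In siPRMT1 cells Xbp1 rose by 1.66 log2 (SE 0.0562, edgeR adjusted p = 2.0e-11) and Dnajb9 by 0.96 (SE 0.102, adjusted p = 1.9e-06). They are the 2 of 10 genes called higher, with 0 called lower, against 19.0% and 17.4% of 14224 genes. Herpud1 was at 22.7, 22.3 and 23.9 FPKM at 24 h and 22.1, 24.2 and 23.3 FPKM at 72 h, the same range, and its log2 change was 0.00 (95% interval -0.13 to 0.14). The interaction above is the test of this difference between arms.

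Hyou1 was lower at 72 h in siPRMT1 (-0.40, edgeR adjusted p = 1.9e-05), while Hspa5 (0.29, adjusted p = 0.00145) and Pdia4 (0.21, adjusted p = 0.00438) were higher, all under the fold threshold. With the GC and length offsets Herpud1 had -0.22 (adjusted p = 4.5e-04), so that its level in siPRMT1 held only on the uncorrected scale. The 5 comparisons reuse the same 12 libraries and are not independent of each other.

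**Figure D3:**
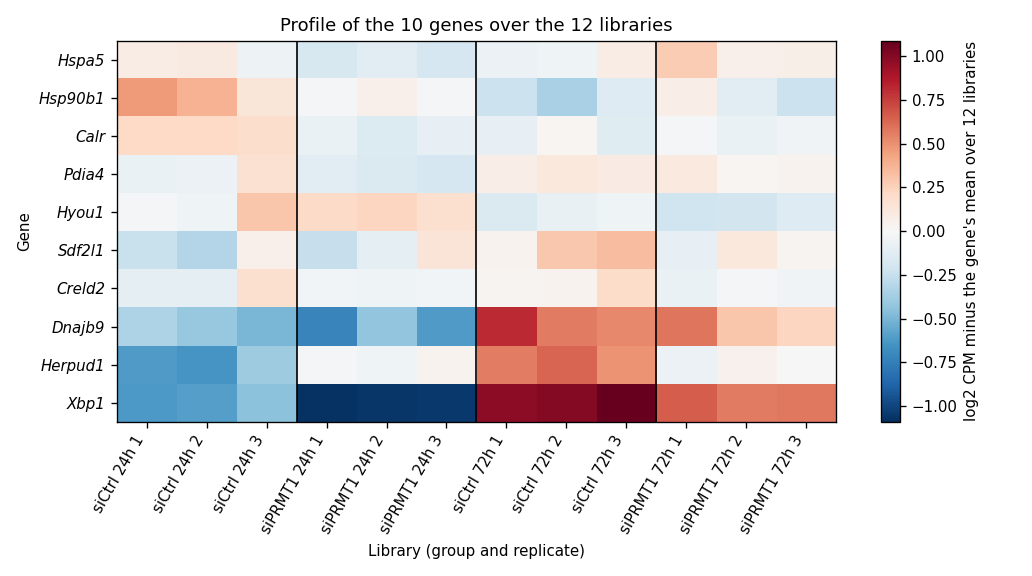
Profile of each gene (rows) over the 12 libraries (columns, 3 per group): colour is log2 CPM minus the gene's own mean over the 12 libraries. Xbp1, Dnajb9 and Herpud1 vary most with time, Herpud1 sits near 0 in all siPRMT1 libraries, and Pdia4 and Creld2 stay near 0 almost throughout.

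The 10 genes did not move as a unit. The closest pair of profiles was Pdia4 and Creld2, with a root mean square difference of 0.0922 log2 over the 12 libraries, and Hspa5 and Pdia4 followed with 0.122. From the mean profile of the 10 genes, Xbp1 was farthest at 0.68, while Pdia4 was nearest at 0.10. Of the 9315 other genes that averaged 10 CPM or more, Canx, the membrane-bound relative of calreticulin, was among the closest to Hspa5 (0.0544), where the median of all was 0.262. Closest to the mean profile were Zdhhc5 (0.0404) and St13 (0.0426), against a median of 0.272. These are descriptions over 12 libraries of 4 groups, and genes that follow the same groups are alike in them.

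Beside these genes, the PERK-ATF4 arm of the response was the list with the most calls in both knockdown comparisons and in the interaction. The gene lists were chosen with earlier results of these data known, so their shares called are no test of enrichment. At 24 h 6 of its 11 genes were called higher in siPRMT1 and 0 lower, against 1.95% and 1.61% of all genes. All 11 had a positive change, and the median was 0.56 log2 against 0.01 for all genes. At 72 h 0 were called higher and 5 lower, against 2.84% and 3.80% of all genes. There 10 of 11 had a negative change, and the median was -0.36. The interaction was called lower for 9 of 11, against 3.47% of all genes. Without the library that stood apart, 6 of 11 were again called higher at 24 h and the interaction was called lower for 10 of 11. In those fits 873 of 13949 and 1907 of 14978 genes tested were called in either direction. At 24 h Eif2ak3, the gene of PERK, had -0.10 (edgeR adjusted p = 0.404) and Atf4 0.20 (adjusted p = 0.115). Whether PERK or ATF4 drove the changes of this list was not tested.

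Trib3, a pseudokinase induced by ATF4, was at 14.5, 14.8 and 17.7 FPKM in siCtrl and 44.5, 48.9 and 50.5 FPKM in siPRMT1 at 24 h, and at 42.0, 42.7 and 40.9 against 20.8, 20.8 and 23.4 FPKM at 72 h. Its order of groups was reversed between the times, as that of Herpud1 was. The log2 fold changes were 1.57 (SE 0.0932, edgeR adjusted p = 9.8e-04) and -0.96 (SE 0.0753, adjusted p = 1.5e-06). Chac1, which breaks down glutathione, rose by 1.24 at 24 h (edgeR adjusted p = 0.00225) and fell by 0.65 at 72 h (adjusted p = 7.6e-05). Ddit3, the factor CHOP, rose by 0.69 at 24 h (adjusted p = 0.00302) and was at -0.26 at 72 h (adjusted p = 0.0373), under the fold threshold.

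Nupr1, a stress-induced nuclear protein, fell by 0.83 at 72 h (edgeR adjusted p = 3.5e-05) and Ddit4, an inhibitor of mTORC1, fell by 0.66 (adjusted p = 5.4e-05). At 24 h they had 0.49 (adjusted p = 0.0179) and 0.28 (adjusted p = 0.0562).

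**Figure D4:**
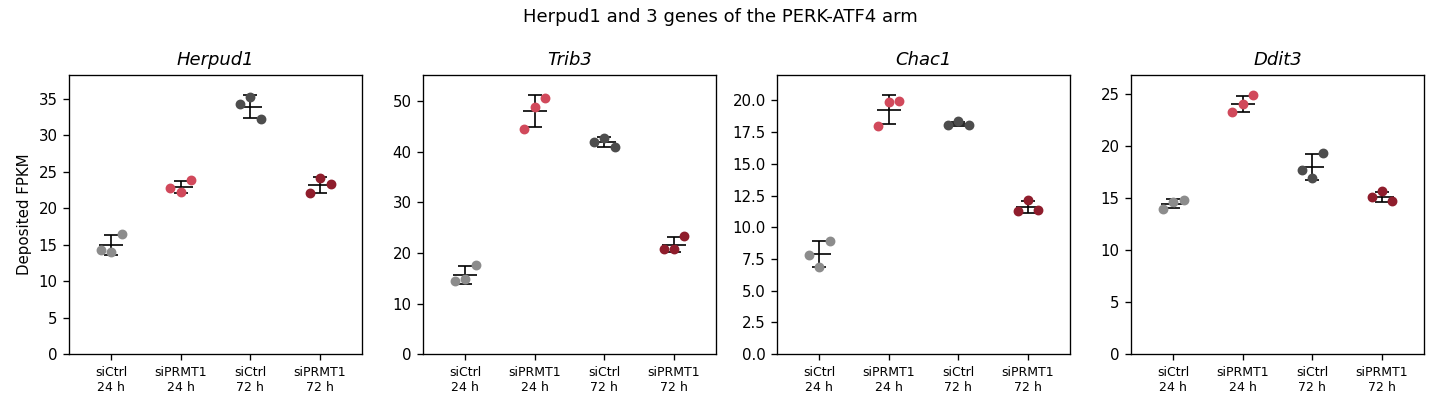
Deposited FPKM (vertical axis, from 0) of Herpud1 and of Trib3, Chac1 and Ddit3 in the 4 groups (horizontal axis); points are libraries and bars the mean ± SD. In all 4 panels siPRMT1 is above siCtrl at 24 h and below it at 72 h.

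Among the other lists, disulfide formation had 1 gene called, Ero1l, the oxidase that renews protein disulfide isomerases. Ero1l was at 34.1, 32.9 and 26.0 FPKM in siCtrl and 50.6, 65.4 and 51.7 FPKM in siPRMT1 at 24 h, and at 83.2, 65.3 and 64.0 against 40.6, 33.2 and 32.8 FPKM at 72 h. The groups did not overlap at either time, and their order was reversed. It rose by 0.80 log2 (SE 0.135, edgeR adjusted p = 0.0143) and fell by 1.0 (SE 0.103, adjusted p = 1.4e-05), and its call at 24 h was lost in 4 of the 6 fits that left out 1 library, with an adjusted p up to 0.0780. The other 12 genes of the list had a negative change at 24 h, with a list median of -0.24, and 10 of 13 without the library that stood apart, with a median of -0.20.

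No gene was called in either direction at 24 h or at 72 h in the lists of other ER chaperones and cochaperones (17 genes), stress sensors and their transcription factors (11 of 13 tested), glycan trimming and quality control (10), ER-associated degradation (19 of 21 tested), translocation and N-glycosylation (26), cytosolic heat shock proteins (13 of 15 tested) and mitochondrial chaperones and proteases (6). Of these genes at most 3 in a list passed the adjusted p of edgeR alone at either time, and list medians ran from -0.11 to 0.05 log2. In the interaction 2 of the 17 other ER chaperone genes were called, among them Fkbp14, a prolyl isomerase of the ER (0.58, adjusted p = 0.00948), and 1 of the 11 sensor genes, Ern1, the sensor IRE1 (-0.53, adjusted p = 0.0125). Degradation had Syvn1, its ubiquitin ligase (-0.57, adjusted p = 0.0144), translocation and N-glycosylation had Krtcap2 (-0.55, adjusted p = 0.0118), and disulfide formation had Prdx4, a peroxiredoxin (0.68, adjusted p = 0.00824), beside Ero1l. The cytosolic and mitochondrial lists had 1 call each and glycan trimming 0, all by edgeR against 4.77% of all genes called higher and 3.47% lower. Apart from Ero1l, the genes of these lists were named after their values were seen.

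Over time in siCtrl, where 22.7% of all genes were called higher and 20.4% lower, the lists differed in their counts. Glycan trimming had 0 of 10 genes called higher and 5 lower, and disulfide formation 2 of 13 higher and 5 lower. The other ER chaperones had 1 of 17 higher and 2 lower, degradation 3 of 19 higher and 2 lower, and translocation and N-glycosylation 0 of 26 higher and 2 lower.

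**Figure D5:**
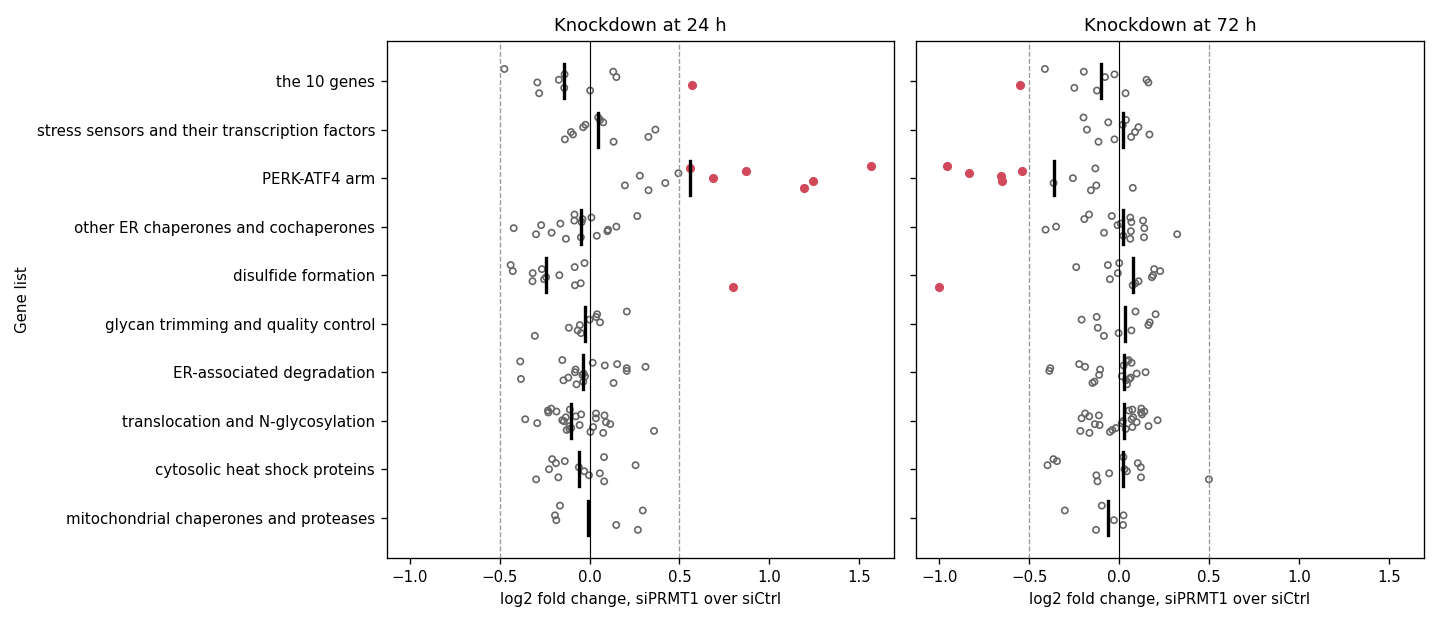
log2 fold change of siPRMT1 over siCtrl (horizontal axis) at 24 h (left) and 72 h (right) for each gene of 10 lists (vertical axis); filled points were called, open points were not, thick bars are list medians and dashed lines the fold threshold of 0.5. Called genes lie in the PERK-ATF4 arm, with Herpud1 among the 10 genes and Ero1l in disulfide formation, and they lie to the right at 24 h and to the left at 72 h.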

How the data were processed

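Total RNA from 12 samples of 3T3-L1 cells was turned into mRNA libraries (MGIEasy kit) and sequenced on an MGI instrument. Per the labels and the study's methods, the authors trimmed reads with cutadapt 1.11 and aligned them with HISAT2 2.1.0 to mm10. RSEM 1.2.6 is also named in the submitters' processing notes, and the step that made the counts, with its strand setting, is not given in the sources used here. The authors deposited raw counts per gene with a listed gene length and FPKM values. Recomputing FPKM from counts, length and the library total gave values within 0.005 of those deposited, so FPKM carries no correction beyond depth and length.

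Counts were tested with edgeR 4.0.16 (R 4.3.3; TMM scaling, filterByExpr, quasi-likelihood F test, Benjamini-Hochberg adjustment over all genes tested), with calls made where the adjusted p was under 0.05 and the absolute log2 fold change over 0.5. Standard errors were taken from the F statistic and intervals are 95%. Alternatives were DESeq2 1.42.0, limma 3.58.1 on log2(FPKM + 1) or + 0.1 with and without an FPKM minimum of 1, RLE scaling, no filter or at least 10 counts in every library, no fold threshold, 1 model of all 12 libraries, a replicate block and each library left out. Offsets for GC content and length (splines of 6 degrees of freedom, 88.9% of 14612 genes with a value) were added after seeing the data. The code was tested on simulated data. Library totals of 15116462 to 42357137 set the depth, and 3 counts correspond to 0.071 to 0.198 CPM, which covers counting error only.

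All 12 samples had a group in the labels. Nothing in the labels says that the 3 libraries of a group came from separate cultures, so p-values measure the spread between these libraries, which may be technical. The named genes were the 10 genes, Prmt1, at most 3 called genes of each list by smallest p, and the genes nearest in profile (log2 CPM with a prior count of 2, centred on each gene's mean). The 10 genes and the gene lists were chosen with earlier results of these data known. Promoter sequences are those of RefSeq for GRCm38.p6. One gene among those nearest in profile is not reported here.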

Additional observations from a re-analysis of the deposited data

Results flagged for a closer look

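The effect of PRMT1 knockdown differed between 72 h and 24 h, by the interaction test of edgeR with Benjamini-Hochberg adjustment over 14612 genes, for 4 of the 10 genes and for 14 named genes of the other lists. For Herpud1 the knockdown effect was lower at 72 h than at 24 h by 1.10 log2 (-1.10, adjusted p = 3.5e-05), with 3 of 3 siPRMT1 libraries above the controls at 24 h and 3 of 3 below them at 72 h. The difference was 0.34 for Hspa5 (adjusted p = 0.0366), 0.47 for Hsp90b1 (adjusted p = 0.0275) and 0.34 for Calr (adjusted p = 0.0103), where the knockdown value was negative at 24 h and slightly positive at 72 h. Of these, the Hspa5 and Hsp90b1 values missed the adjusted p threshold in 11 and 9 of 22 fits.

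Among the PERK-ATF4 genes the difference was -2.50 for Trib3 (adjusted p = 6.2e-08), -1.88 for Chac1 (adjusted p = 3.3e-06), -1.31 for Nupr1 (adjusted p = 3.8e-05), -0.92 for Ddit3 (adjusted p = 5.8e-05) and -0.92 for Ddit4 (adjusted p = 1.4e-04). For Ero1l it was -1.78 (adjusted p = 3.8e-05). Cryab, a small heat shock protein (0.81, SE 0.159, adjusted p = 0.00460), and Dnajc10, an ER reductase (0.64, SE 0.119, adjusted p = 0.00325), were named after their values were seen. So were Ern1 (-0.53, adjusted p = 0.0125), Fkbp14 (0.58, adjusted p = 0.00948), Prdx4 (0.68, adjusted p = 0.00824), Syvn1 (-0.57, adjusted p = 0.0144), Krtcap2 (-0.55, adjusted p = 0.0118) and Lonp1, a mitochondrial protease (-0.58, adjusted p = 0.00569). No test for a single outlying value was made for any gene, since each group has 3 libraries.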

How the results depend on the processing

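Herpud1 kept its sign at 24 h, at 72 h and in the interaction under every alternative run, and Xbp1 kept its sign in both knockdown comparisons. Among the 10 genes called lower, Xbp1 and Calr joined at 24 h (2 genes) and Xbp1 at 72 h (2 genes) once the fold threshold was dropped, and Xbp1 was also called at 24 h in 1 model of all 12 libraries (1 gene). At 72 h 0 genes were called with GC and length offsets. For the interaction Hsp90b1 was called higher (1 gene) with no filter on low counts, and 3 genes were without the fold threshold. Over time in siCtrl, 0 genes were called lower with limma under all 3 settings and with GC and length offsets, and 2 without the fold threshold; in siPRMT1 4 were called higher and 1 lower without it.

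Leaving out 1 library each time, genes of the 10 called at 24 h ranged from 0 to 1 higher and 0 to 1 lower, and those called higher in the interaction from 0 to 1. Genes called over the whole table ranged from 123 to 873 at 24 h (main value 487), the highest without siCtrl replicate 3, and from 813 to 1907 in the interaction (1204). At 24 h 1040 genes passed without the fold threshold, 246 with limma and 153 with limma and no FPKM minimum. At 72 h (933) these were 2313, 388 and 342, and 569 with a pseudocount of 0.1. The interaction gave 706 with limma and no FPKM minimum. Over time in siCtrl (5969) limma gave 3964, and in siPRMT1 (5186) limma gave 3144, or 3432 with no FPKM minimum, and 9014 genes passed without the fold threshold.

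Changes of sign were near 0 except with GC and length offsets. Creld2 at 24 h was -0.0051 with DESeq2, -0.0020 with no filter, -0.0099 with at least 10 counts, -0.029 in 1 model of 12 libraries, -0.025 with the offsets and -0.038 to 0.085 when 1 library was left out. In the interaction Creld2 was 0.011 with the offsets, and Dnajb9 ran from -0.20 to 0.0068 with 1 library left out. Over time in siCtrl Hspa5 was 0.027 with limma under all 3 settings, and with the offsets Sdf2l1 was -0.027 and Creld2 -0.28 (adjusted p = 0.00241 in edgeR). Over time in siPRMT1 Herpud1 was -0.0056 with DESeq2, -9.5e-04 with RLE, -0.020 with no filter, -0.22 with the offsets and -0.028 to 0.028 with 1 library left out. There Creld2 was 0.0050 with limma at a pseudocount of 1 and 0.0051 at 0.1, and -0.023 to 0.0042 with 1 library left out. With the offsets Creld2 kept its negative sign but was farther from 0, at -0.25 (adjusted p = 1.8e-04 in edgeR). Sdf2l1 was -0.15 with the offsets and -0.0028 to 0.19 with 1 library left out, and Calr was -0.13 with the offsets. The cause of these changes was not tested.

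Replicate numbers gave little sign of pairing: correlations of same-numbered deviations ran from -0.17 to 0.22. With the number as a block, Herpud1 was 0.57 at 24 h and -0.55 at 72 h, 536 and 974 genes were called in the 2 knockdown comparisons, and the counts called among the 10 genes were those of the fit without the block. Without the fold threshold, genes passing the adjusted p of edgeR went from 1040 to 1179 at 24 h with the block. At 72 h they went from 2313 to 3216, with 3 instead of 2 of the 10 genes passing as lower. With 3 libraries a group, changes on either side of the fold threshold rest on few degrees of freedom. The library with the strongest GC trend limits what the 24 h values of Hspa5, Hsp90b1, Pdia4, Hyou1, Sdf2l1 and Creld2 can show. That library was also shifted for Herpud1 (0.24 log2 from its group mean), Xbp1 (0.17) and Dnajb9 (-0.13). Without it their 24 h changes were 0.64, -0.43 and -0.20. Other libraries had GC trends too, from -0.24 (siCtrl replicate 1 at 24 h) to 0.13 (siPRMT1 replicate 3 at 72 h). These are in log2 per 10 points of GC content, relative to the library's group. The knockdown log2 fold change had a trend of 0.07 at 24 h and -0.13 at 72 h per 10 points.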

Other observations

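Of the 9315 other genes that averaged 10 CPM or more, those closest to Herpud1 in profile over the 12 libraries were Siah2 (root mean square difference 0.105 log2), a ubiquitin ligase, Slc48a1 (0.113), Zfp787 (0.129), Pdxp (0.129) and Ulk3 (0.131), where the median of all was 0.456. Herpud1 was chosen for this after its values were seen, and the likeness is a description.

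Over 24 h to 72 h of DMI in siPRMT1, where 19.0% of all genes were called higher, 4 of 6 mitochondrial chaperone and protease genes were, among them Hspd1 (1.15 log2, SE 0.0808, edgeR adjusted p = 2.9e-08), and in siCtrl 3 of 6 were, against 22.7% of all genes, Hspd1 by 0.98 (SE 0.0639, adjusted p = 8.9e-07). Cryab, a small heat shock protein, rose by 1.74 in siCtrl (adjusted p = 2.3e-06) and by 2.55 in siPRMT1 (adjusted p = 2.9e-11). Dnajc10, an ER reductase, fell by 1.29 in siCtrl (adjusted p = 1.9e-06) and by 0.66 in siPRMT1 (adjusted p = 2.1e-06).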
